A study of Mus musculus with 7 samples.

Results

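The nuclear genes for subunits and assembly factors of the respiratory chain and ATP synthase were followed across 7 Affymetrix arrays of macrophages sorted from the mouse colon. A gene was a member when its symbol began with Nduf (complex I), Uqc (III), Cox4 to Cox8 (IV) or Atp5 (V), or was Sdha, Sdhb, Sdhc or Sdhd (II). Only probe sets with a single gene symbol were used, and the brightest represented each gene. This gave 92 members of 19938 genes measured, with 43 in complex I, 4 in complex II, 11 in complex III, 17 in complex IV and 17 in complex V. The symbols also brought in 7 complex I and 3 complex III assembly factors, and Ndufa4, now regarded as a complex IV subunit, with its paralogue Ndufa4l2. Some genes the symbols cover, such as Cox7c, Ndufb1 and Ndufb4, had no probe set with a single symbol and were not analysed here. None of the subunits encoded by mitochondrial DNA was measured.

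Oxidative phosphorylation moves electrons from NADH and succinate through complexes I and II to coenzyme Q, then through complex III, cytochrome c and complex IV to oxygen. Complexes I, III and IV pump protons as this happens, and complex V uses the proton gradient to make ATP. Macrophages switched to an inflammatory state are known to lean on glycolysis, whereas alternatively activated ones lean on respiration, and IL-10 is known to favour mitochondrial respiration in stimulated macrophages.

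All cells came from 6-week-old C57BL/6 mice kept free of specific pathogens, and were sorted from the lamina propria, the layer under the gut epithelium. In the 3 arrays of the group called resident WT here, cells sorted as resident macrophages came from mice carrying the Cx3cr1gfp/+ reporter, with 1 Cx3cr1 allele replaced by GFP. The 2 Il10ra_mKO arrays hold resident macrophages of CX3CR1cre:IL10Raflox/flox mice, in which Cre made from the Cx3cr1 locus deletes the ligand-binding chain of the IL-10 receptor in cells that express Cx3cr1. The remaining 2 arrays hold cells sorted as CX3CR1hi, 1 from Cx3cr1gfp/+ mice (CX3CR1hi WT) and 1 from IL10-/- CX3CR1gfp/+ mice (Il10_KO), which lack IL-10 in every cell. No array carries Cre without the floxed Il10ra gene, so the Cre allele and the deletion cannot be told apart. The labels do not say whether arrays came from separate animals or pools, so the p-values speak for the spread among these arrays alone, and that spread may be technical. Arrays are numbered within a group only to name them.

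The 2 sort labels were kept apart in every comparison. Among the 5 resident arrays, 49.15% of all 35399 rows held an equal value in 2 or more arrays, and 99.86% of those ties lay at the median of the 5. Between a resident and a CX3CR1hi array, at most 0.006% of the rows were equal. RNA of the 2 labels was also extracted with different kits, so sort label, kit and array processing cannot be told apart. Ties touched 39 of the 92 members, and in 6 of them all 3 resident WT values were equal. The spread of such genes is understated. The 12 macrophage markers had a mean log2 level of 11.69 to 12.07 in every array. Their Il10ra_mKO differences ran from −0.49 in Cx3cr1, the gene that carries GFP or Cre, to 0.95 in Mertk, with Csf1r at −0.01. The Il10ra level was 10.56, 10.76 and 11.12 in resident WT and 8.05 and 7.04 in Il10ra_mKO (difference −3.27 ± 0.38, SE; limma adjusted p = 0.243), so both arrays labelled as lacking Il10ra lay below every WT array. The Il10 level was 11.04 in the CX3CR1hi WT array and 10.75 in the Il10_KO array, and the sources used here do not place its probes against the deletion, so the Il10_KO label was not checked.

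The promoters of 3 complex IV members are shown first because their genes frame the results. Cox7a1, known as the heart and skeletal muscle isoform of subunit 7a, had the largest difference of any member. Cox7a2, the form of the same subunit made in most tissues, and Cox6a1, the widely made form of subunit 6a, stand beside it. Each sequence is the 250 bases before the RefSeq transcription start (GRCm38.p6), written 5′ to 3′ on the gene's strand, at chr7:30183921-30184170 (plus strand) for Cox7a1, chr9:79759854-79760103 (minus) for Cox7a2 and chr5:115348959-115349208 (minus) for Cox6a1. Capitals mark motif matches.

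Cox7a1: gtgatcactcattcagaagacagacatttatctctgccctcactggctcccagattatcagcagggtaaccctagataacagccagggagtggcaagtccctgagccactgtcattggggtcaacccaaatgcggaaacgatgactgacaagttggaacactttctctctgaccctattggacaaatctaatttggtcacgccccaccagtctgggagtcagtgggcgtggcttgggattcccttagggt
Cox7a2: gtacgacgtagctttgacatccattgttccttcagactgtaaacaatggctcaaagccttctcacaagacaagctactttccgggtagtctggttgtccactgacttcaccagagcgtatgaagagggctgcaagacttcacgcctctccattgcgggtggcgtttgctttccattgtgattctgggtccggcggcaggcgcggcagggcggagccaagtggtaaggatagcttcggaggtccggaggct
Cox6a1: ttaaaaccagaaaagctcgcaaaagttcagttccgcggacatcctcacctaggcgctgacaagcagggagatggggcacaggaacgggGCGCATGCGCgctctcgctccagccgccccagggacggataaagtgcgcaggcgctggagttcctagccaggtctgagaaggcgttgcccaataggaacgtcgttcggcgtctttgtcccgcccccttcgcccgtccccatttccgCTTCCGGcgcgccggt

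4 motifs of factors known to act on nuclear genes of mitochondria were searched on both strands: NRF1 (the first run of capitals in Cox6a1, which reads the same on both strands), the ETS core bound by GABP (CCGGAAG), YY1 (AAGATGGCG) and ERR (TCAAGGTCA). The Cox6a1 sequence holds the NRF1 motif and, on the opposite strand, the ETS core. The Cox7a1 and Cox7a2 sequences hold none of the 4. GC content was 51.2%, 54.8% and 62.8% for Cox7a1, Cox7a2 and Cox6a1. Windows of 300 bases around the start were listed for 76 of the 92 members (81 windows). Of these, 8.64% held the NRF1 motif, against 0.971% of all 32851 windows. The ETS core was in 22.2% of member windows against 8.86%, YY1 in 8.64% against 1.4%, and ERR in 2.47% against 0.423%. Member windows had a higher median GC content, 57.7% against 52.7%, and its part in these shares was not tested. Matches are descriptions of letters, not measured binding sites.

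In the resident macrophages, most members were slightly lower in Il10ra_mKO than in WT, with Cox7a1 far apart from the rest, but no member passed the test over all genes. Of the 92 members, 71 (77.2%) were lower in Il10ra_mKO, where 47.4% of all genes were. The median difference of the members was −0.09 on the log2 scale, against 0.0 for all genes and 0.02 for the 10530 genes past a brightness cut of log2 5.87. Members lay lower in each complex, in 32 of 43 of complex I, 3 of 4 of complex II, 9 of 11 of complex III, 14 of 17 of complex IV and 13 of 17 of complex V. At a Benjamini-Hochberg adjusted p under 0.05 (limma, over 19938 genes), 0 members were called, where 0.00502% of all genes were. At an unadjusted p under 0.05, 1 member was lower, Cox7a1 (1.09% of members against 3.86% of all genes), and 0 were higher (against 4.06%). The count of lower members at that p was 19 without Il10ra_mKO array 1 (20.7%, against 9.34% of all genes in that fit), 5 without WT array 1 (5.43% against 3.22%) and 0 without WT array 3 (against 3.45%). The count of higher members was 5 without Il10ra_mKO array 2 (5.43% against 7.24%).

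The mean log2 level of all members was 8.88, 9.04 and 8.94 in resident WT arrays 1, 2 and 3, and 8.95 and 8.74 in Il10ra_mKO arrays 1 and 2. Il10ra_mKO array 1 thus lay inside the WT range and array 2 below it. Against the WT mean of 8.95 ± 0.08 (SD, n = 3), array 1 differed by −0.0024 and array 2 by −0.22. In array 2, 57 members (62.0%) lay below all 3 WT arrays, against 23.7% of all genes. In array 1, 13 members (14.1%) did, against 20.7% of all genes. The median difference of the members was −0.20 without Il10ra_mKO array 1 and −0.0094 without array 2.

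Complex by complex, the same array carried the low values. Complex I had mean log2 levels of 8.26, 8.41 and 8.36 in WT and 8.35 and 8.19 in Il10ra_mKO, a difference of −0.07. Complex II had 9.73, 9.94 and 9.81 in WT and 9.83 and 9.64 in Il10ra_mKO, a difference of −0.09. Complex III had 9.01, 9.24 and 9.05 in WT and 9.11 and 8.85 in Il10ra_mKO, a difference of −0.12. In all 3, Il10ra_mKO array 2 lay below the WT arrays and array 1 lay among them. Complex V had 10.51, 10.70 and 10.56 in WT and 10.61 and 10.32 in Il10ra_mKO (difference −0.12), with the same placing. Complex IV had 8.53, 8.65 and 8.53 in WT and 8.52 and 8.27 in Il10ra_mKO, a difference of −0.18, and there both mutant arrays lay below WT, array 1 by a small margin. Without Cox7a1, the complex IV difference was −0.11, within the range of the other complexes, and array 1 lay among the WT arrays.

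**Figure D1:**
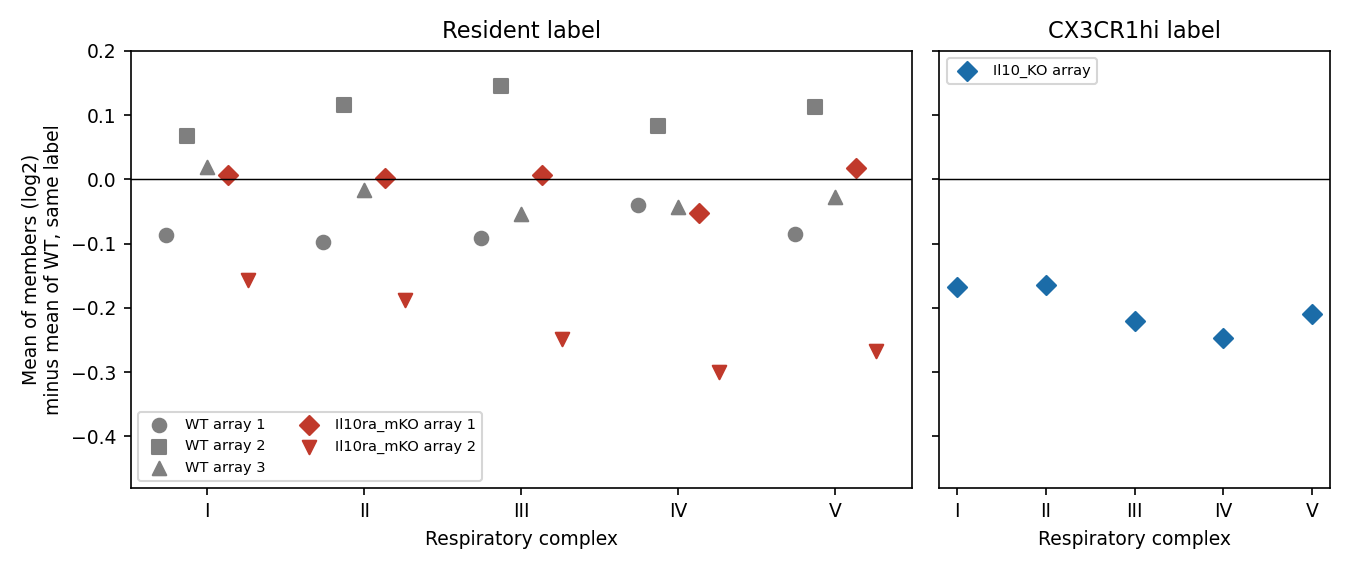
Mean log2 level of the members of each respiratory complex in each array, minus the mean of the WT arrays of the same sort label (vertical axis), for the 5 resident arrays (left) and the Il10_KO array (right). Il10ra_mKO array 2 is the lowest resident array in every complex, array 1 lies near 0, and the Il10_KO array lies between −0.16 and −0.25.

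The sample numbers in the labels fall into runs of neighbouring numbers, and the labels do not say what these runs are. Within the run that holds Il10ra_mKO array 1 with WT arrays 1 and 2, the median member difference was −0.01 and 52 of 92 members were lower. Within the run that holds Il10ra_mKO array 2 with WT array 3, it was −0.20 and 74 of 92 were lower. The share of all genes lower within each run is not given here, so these counts have no background beside them. With the runs as a block, the median was −0.08. Each run holds 1 mutant array, so a run and the array in it cannot be told apart.

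In 10 members both Il10ra_mKO arrays lay below all 3 WT arrays, 10.9% of members against 8.5% of all genes and 11.9% of the genes past the brightness cut. They were Ndufa1, Ndufb2, Ndufb9 and Ndufs6 of complex I, Sdha of complex II, Uqcrh of complex III, Cox6a1, Cox6c and Cox7a1 of complex IV, and Atp5a1 of complex V. The opposite held for 1 member, the complex I assembly factor Ndufaf6 (1.09%, against 8.92% of all genes). The 10 became 57 without Il10ra_mKO array 1 (62.0%, against 23.7% of all genes) and 25 without WT array 1 (27.2% against 12.5%).

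Complex I takes electrons from NADH through a core shared with bacteria, wrapped by accessory subunits. Of its 6 measured core subunits, 5 were lower in Il10ra_mKO, with a median difference of −0.16. Of 28 accessory subunits, 21 were lower (median −0.08), and of 7 assembly factors, 4 were (median −0.01). The accessory subunit Ndufb9 (probe set 10424340, chromosome 15) had the largest difference. Its log2 level was 10.16, 10.52 and 10.37 in WT and 10.10 and 9.70 in Il10ra_mKO, so the groups did not overlap. The difference was −0.45 ± 0.18 (SE), 1.36-fold lower (limma adjusted p = 0.678). Ndufs6, an accessory subunit of the NADH-oxidising arm, stood at 6.82, 6.99 and 6.98 in WT and 6.81 and 6.51 in Il10ra_mKO (difference −0.27 ± 0.12), where array 1 lay just under the lowest WT array. Ndufb6, another accessory subunit, differed by −0.25 ± 0.18 with overlapping groups. Toward higher values, the accessory subunits Ndufc1 and Ndufb7 differed by 0.15 ± 0.31 and 0.11 ± 0.08. Ndufc1 was at 7.69, 8.14 and 8.58 in WT, a spread that holds both mutant values of 8.17 and 8.40. Ndufc2, the brightest complex I member, was at 11.91, 11.92 and 11.83 in WT and 11.91 in both Il10ra_mKO arrays.

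Complex II oxidises succinate and is also an enzyme of the citrate cycle. Its flavoprotein subunit Sdha was at 10.58, 10.85 and 10.74 in WT and 10.53 and 10.45 in Il10ra_mKO, a difference of −0.23 ± 0.10 without overlap. The iron-sulphur subunit Sdhb stood the other way, at 9.33, 9.55 and 9.50 in WT and 9.75 and 9.52 in Il10ra_mKO (difference 0.17 ± 0.11), with array 2 inside the WT range. The membrane anchors Sdhc and Sdhd differed by −0.17 and −0.14. The limma adjusted p was 0.678 for Sdha and for Sdhb.

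Complex III passes electrons from coenzyme Q to cytochrome c. Its core proteins Uqcrc1 and Uqcrc2 had the largest differences, −0.31 ± 0.20 and −0.29 ± 0.18. Uqcrc1 was at 10.22, 10.47 and 10.22 in WT and 10.25 and 9.74 in Il10ra_mKO. Uqcrc2 was at 11.13, 11.41 and 11.24 in WT and 11.20 and 10.74 in Il10ra_mKO. In both genes array 1 lay within the WT range and array 2 below it. The 5 accessory subunits were all lower (median −0.20). Of the 3 assembly factors, Uqcc2 and Uqcc3 were higher by 0.09 ± 0.20 and 0.05 ± 0.06, and Uqcc1 differed by −0.02. Uqcrb, the brightest member of complex III, was at 12.09, 12.51 and 12.45 in WT and 12.22 and 12.19 in Il10ra_mKO.

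Complex IV reduces oxygen, and several of its nuclear subunits exist as a form made in most tissues and a form made in particular tissues or conditions. All 9 common forms were lower in Il10ra_mKO, with a median difference of −0.13. Of 7 tissue or condition forms, 5 were lower (median −0.07), but 5 of the 7 never passed the brightness cut in 2 arrays, so their differences say little. Cox7a1 (probe set 10551836, chromosome 7) was the exception. Its log2 level was 7.74, 8.55 and 8.03 in WT and 7.15 and 6.46 in Il10ra_mKO. Both mutant arrays lay below all WT arrays, and the WT arrays spanned a wide range themselves. The difference was −1.30 ± 0.35 (SE), 2.47-fold lower, with an unadjusted p of 0.023 and a limma adjusted p of 0.506. Leaving out 1 array at a time, it ran from −1.65 to −0.96. Its adjusted p lay between 0.0415, with each array centred on its median, and 0.783. Of 19938 genes ordered by this difference, Cox7a1 was number 151 from the lowest.

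The paralogue Cox7a2 was at 9.76, 9.87 and 9.74 in WT and 9.77 and 9.55 in Il10ra_mKO, a difference of −0.13 ± 0.09 with overlap. Cox7a2l is a relative of subunit 7a known as a factor for supercomplexes of complexes III and IV. Its action in the C57BL/6 mice used here was not examined. Cox7a2l was at 8.45, 8.38 and 8.43 in WT and 8.59 and 8.40 in Il10ra_mKO (difference 0.07 ± 0.07, and −0.02 without array 1). Of the subunit 6a forms, Cox6a1 was at 10.35, 10.60 and 10.47 in WT and 10.35 and 9.83 in Il10ra_mKO, a difference of −0.39 ± 0.19 (limma adjusted p = 0.678). Array 1 lay just under WT array 1, so the groups narrowly missed overlapping. Cox6a2, the muscle form, had 3 equal WT values of 6.22. Cox6c, the brightest complex IV member, was at 12.58, 12.76 and 12.68 in WT and 12.53 and 12.33 in Il10ra_mKO, a difference of −0.25 ± 0.10. Cox4i1, the common form of subunit 4, differed by −0.26 ± 0.20, and its oxygen-sensitive counterpart Cox4i2, dim in all arrays, by 0.06 ± 0.04. Ndufa4, counted with complex I by its symbol, differed by −0.16 ± 0.09.

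**Figure D2:**
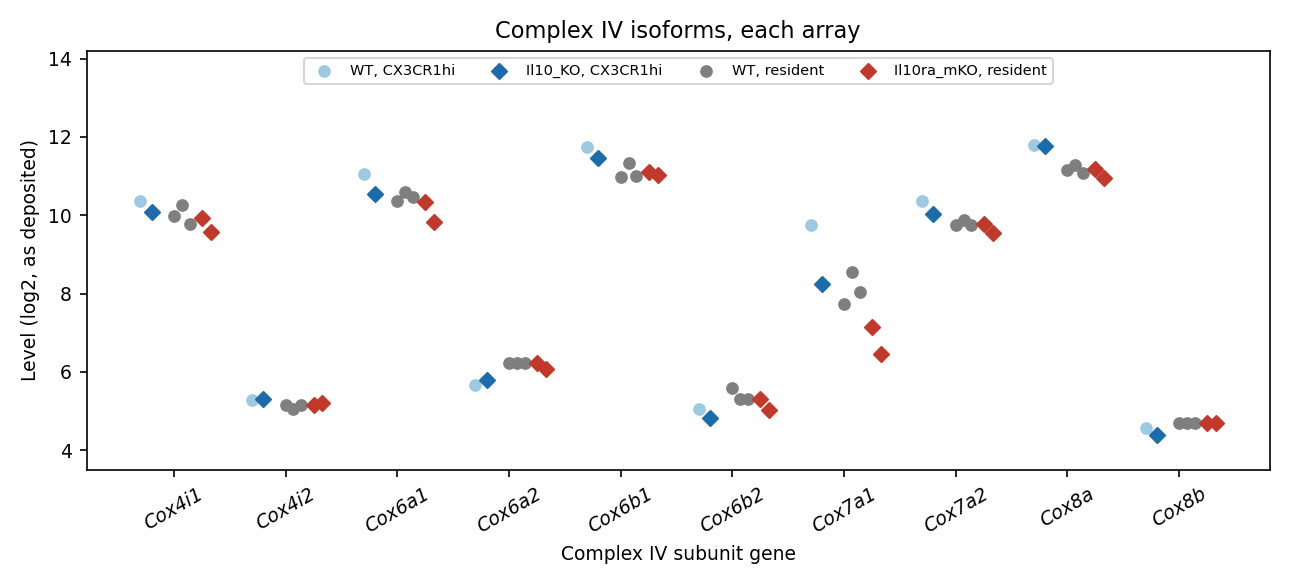
Deposited log2 level (vertical axis) of paired isoforms of complex IV subunits in each of the 7 arrays, each point 1 array, with levels of different genes not comparable. Cox7a1 spreads from 6.46 to 9.75, and its 3 mutant arrays each lie below the WT arrays of the same sort label, while Cox4i2, Cox6b2 and Cox8b stay dim in every array.

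Complex V joins a catalytic F1 head to a membrane-embedded Fo rotor. Of 5 F1 subunits, 4 were lower (median −0.23), and of 10 Fo and stalk subunits, 7 were (median −0.11). Atp5c1, the F1 subunit that turns inside the catalytic head, was at 10.11, 10.52 and 10.49 in WT and 10.06 and 10.14 in Il10ra_mKO, a difference of −0.27 ± 0.16. Atp5e, the smallest F1 subunit, had the largest positive difference of any member, 0.23 ± 0.16. Its level was 8.15, 8.34 and 8.34 in WT and 8.72 and 8.30 in Il10ra_mKO, so array 1 alone lay above WT. Atp5l, of the Fo and stalk subunits, had the next positive difference of complex V, 0.05 ± 0.05, with array 2 inside the WT range. In the CX3CR1hi arrays Atp5l differed by −0.30. Each of its 6 probe sets was higher in Il10ra_mKO and lower in Il10_KO. With 1 CX3CR1hi array on each side, opposite effects are not shown. The 3 genes Atp5g1, Atp5g2 and Atp5g3 encode the same mature ring subunit c. They differed by −0.30 ± 0.25, −0.15 ± 0.13 and −0.23 ± 0.22, and Atp5g1 and Atp5g3 turned to 0.02 and 0.06 without Il10ra_mKO array 2. Atp5d, a subunit of the central stalk and the brightest complex V member, was at 12.60, 12.79 and 12.57 in WT and 12.66 and 12.22 in Il10ra_mKO.

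In the CX3CR1hi cells most members were again lower in the mutant, but 1 array stands on each side, so the differences are given as values. Of the 92 members, 78 (84.8%) had a lower level in the Il10_KO array than in its WT partner, where 43.7% of all genes did. The median difference was −0.18 on the log2 scale, against 0.03 for all genes and 0.07 for the genes past the brightness cut. By complex, 37 of 43, 4 of 4, 9 of 11, 13 of 17 and 15 of 17 members of complexes I to V were lower, with medians of −0.13, −0.17, −0.26, −0.22 and −0.30. A difference under −0.5 was found in 6 members (6.52%, against 5.54% of all genes and 8.9% of the genes past the brightness cut). A difference over 0.5 was found in 0 (against 4.02% and 7.06%). Mean levels went from 9.40 in WT to 9.21 in Il10_KO over all members.

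The 6 were Cox7a1, the complex I subunits Ndufb6, Ndufa1 and Ndufb9, the small complex III subunit Uqcr11, and Cox6a1. Cox7a1 was at 9.75 in WT and 8.23 in Il10_KO, a difference of −1.52 or 2.86-fold lower, which made it number 46 from the lowest of all genes. Ndufb6 was at 10.80 and 10.22 (−0.58), and Uqcr11 at 9.90 and 9.34 (−0.57). Ndufa1, an accessory subunit needed to build complex I, was at 8.49 and 7.93 (−0.55). Ndufb9 was at 11.14 and 10.60 (−0.53), and Cox6a1 at 11.06 and 10.55 (−0.51). The 4 highest differences were those of Ndufaf5 (0.23), Ndufb3 (0.20), Cox7b2 (0.14) and Uqcc3 (0.14). Ndufaf5 and Uqcc3 are assembly factors of complexes I and III.

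The 2 comparisons share no array. In both of them 66 of 92 members (71.7%) were lower, against 28.6% of all genes, and 9 were higher in both: the assembly factors Ndufaf5, Uqcc2 and Uqcc3, the complex I core subunit Ndufs8, Cox4i2, Cox7a2l, Cox7b2, Atp5e and Atp5k. The share of all genes higher in both is not given here. Some of these differences were close to 0, such as 0.0046 in Ndufs8 and 0.0018 in Atp5k (Il10ra_mKO) and 0.0008 in Atp5e (Il10_KO). A further probe set of Cox7a2l differed by −0.03 in Il10ra_mKO, and a further probe set of Uqcc2 by −0.17 in Il10_KO. Of the 6 members under −0.5 in Il10_KO, 4 also had both Il10ra_mKO arrays below WT: Ndufa1, Ndufb9, Cox6a1 and Cox7a1. The share of all genes placed so is not given here. Of all genes, 5.54% were under −0.5 in Il10_KO and 3.03% were under −0.5 in both comparisons. Of the members, Cox7a1 alone was under −0.5 in both. Many genes under −0.5 in Il10_KO were thus under −0.5 in Il10ra_mKO too. That rule differs from the placing of the 4 members, so it gives no background for their count. The difference between the mutant effects was called by limma at an adjusted p under 0.05 in 1 member, the dim Cox8b, where 4.7% of all genes were called. In 4 of the 5 resident arrays Cox8b held an equal value, so the small spread behind this call comes from ties. The Il10_KO difference itself, with the lone arrays assumed to vary as the others, was called in Cox8b alone (7.9% of all genes).

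**Figure D3:**
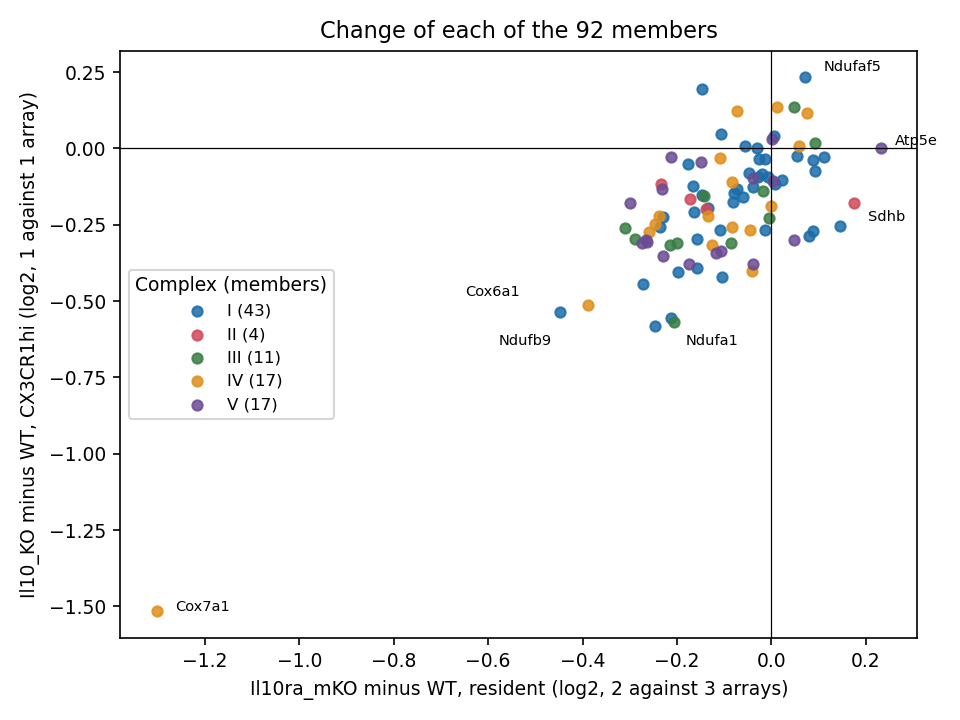
Each point is 1 of the 92 members, coloured by complex, with the Il10ra_mKO minus resident WT difference (horizontal, log2, 2 against 3 arrays) and the Il10_KO minus CX3CR1hi WT difference (vertical, log2, 1 against 1 array). Most points lie left of and below 0, and Cox7a1 stands alone at −1.30 and −1.52.

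Genes that feed or serve the respiratory chain were taken as separate lists. Of 15 genes listed for the citrate cycle and pyruvate dehydrogenase, 15 were lower in Il10ra_mKO (median −0.23) and 12 in Il10_KO (median −0.22). In 8 of them both Il10ra_mKO arrays lay below WT (8.5% of all genes did). At an unadjusted p under 0.05, 3 of them were lower (3.86% of all genes) and 0 higher, and none of the 15 passed a limma adjusted p of 0.05. Suclg2, a subunit of succinyl-CoA ligase, was at 9.32, 9.59 and 9.61 in WT and 8.77 and 8.09 in Il10ra_mKO (difference −1.08 ± 0.25, adjusted p = 0.44). Idh2, the mitochondrial NADP-dependent isocitrate dehydrogenase, was at 9.99, 10.05 and 9.84 in WT and 9.41 and 9.25 in Il10ra_mKO (−0.63 ± 0.10, adjusted p = 0.31). The Idh2 difference was 0.03 in the CX3CR1hi arrays, where Suclg2 differed by −0.72. Of 13 genes for electron carriers and coenzyme Q synthesis, 11 were lower (median −0.07), and 0 passed an unadjusted p under 0.05.

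Ppargc1a, a coactivator of nuclear genes for mitochondria, had the largest negative difference among 14 regulators. Its log2 level was 8.05, 8.35 and 7.89 in WT and 7.18 and 6.34 in Il10ra_mKO, so the groups did not overlap. The difference was −1.34 ± 0.32 (limma adjusted p = 0.45), and in the CX3CR1hi arrays it was −1.29, from 9.24 to 7.94. Its relative Ppargc1b differed by 0.16 ± 0.05. Hif1a, the oxygen-regulated factor that raises glycolytic genes, was at 10.32, 10.80 and 11.19 in WT and 11.85 and 11.66 in Il10ra_mKO, a difference of 0.98 ± 0.30 (adjusted p = 0.56). The median of the regulators was −0.02. Nrf1 itself differed by 0.02 and Gabpa by −0.12, both within their standard errors.

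Assembly factors and carriers were followed next. Of the complex II factors, Sdhaf2, which attaches the flavin to Sdha, was at 7.73, 7.86 and 8.09 in WT and 8.35 and 8.31 in Il10ra_mKO (0.44 ± 0.13, adjusted p = 0.53), and Sdhaf1, Sdhaf3 and Sdhaf4 differed by 0.22, −0.04 and 0.08. Complex IV assembly factors had a median of −0.03 over 15 genes and complex V assembly and inhibitor genes −0.08 over 4. Among 6 carriers of nucleotides, phosphate and metabolites, Vdac3, a channel of the outer mitochondrial membrane, differed by −0.46 ± 0.14 (adjusted p = 0.56). The 77 mitochondrial ribosome genes, which build the machine for the mitochondrially encoded subunits, had a median of 0.03 in Il10ra_mKO, with 31 lower, and −0.07 in Il10_KO, with 51 lower. The 2 measured uncoupling genes had a median of −0.01.

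Marker lists of other colon cells differed between the arrays too, some lower and some higher in Il10ra_mKO. The 18 epithelial markers had mean log2 levels of 10.15, 10.59 and 10.22 in resident WT and 10.30 and 8.45 in Il10ra_mKO, and 11.05 in CX3CR1hi WT against 10.45 in Il10_KO. In Il10ra_mKO 17 of the 18 were lower (median −0.85), and in 7 both arrays lay below WT (8.5% of all genes did). Within the 2 runs the epithelial median was −0.17 and −1.65. The order of the resident arrays by this mean was the order by the mean of all members, lowest in Il10ra_mKO array 2, then WT arrays 1 and 3, Il10ra_mKO array 1 and WT array 2. All 18 were above the brightness cut in every WT array, and in resident WT the colonocyte enzyme Car1 was at 12.98 to 13.31 and the goblet cell mucin Muc2 at 11.69 to 12.19. In Il10ra_mKO array 2 they were at 9.19 and 9.62. The part of epithelial RNA in the member differences was not tested.

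The 11 fibroblast and muscle markers had mean levels of 7.21, 7.39 and 6.94 in resident WT and 6.54 and 6.45 in Il10ra_mKO, and 7.01 in CX3CR1hi WT against 6.35 in Il10_KO. In Il10ra_mKO 10 of the 11 were lower (median −0.78), and in 7 both arrays lay below WT, among them the matrix protein gene Dcn (10.63 to 11.39 in WT, 9.26 and 9.68 in Il10ra_mKO). The muscle genes Des and Tagln were dim in the resident arrays, at 5.10 to 5.13 and 5.19 to 5.44. The order of the resident arrays by the mean of this list was the order by the complex IV mean and by Ppargc1a. In Cox7a1 the Il10ra_mKO arrays were likewise lowest and WT array 2 highest. The match with the complex IV mean depended on this gene. With Cox7a1 left out of that mean, Il10ra_mKO array 1 lay within the WT range and the order differed. The part of fibroblast or muscle RNA in the Cox7a1 and Ppargc1a differences was not tested. In bulk samples, fewer cells of a type and less RNA per cell cannot be told apart.

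Other lists went the other way or had no common direction. Of 10 neutrophil markers 10 were higher in Il10ra_mKO (median 0.34), with array 1 the highest. Of 8 T cell and innate lymphoid markers 8 were higher (median 0.13), and the 10 dendritic cell and 7 B and plasma cell markers had medians of 0.21 and 0.50, with array 2 the highest. Of the B and plasma cell markers 2 were lower. Of the dendritic cell markers 3 were lower and the differences ran from −2.22 to 2.91, so that median describes no common change. All 4 lists had lower means in each WT array than in either Il10ra_mKO array, an order that differs from that of the members. The 7 monocyte markers ran from 3.12 in F10 to −3.07 in F13a1, so their median of −0.05 describes no common change. Their mean still gave the resident arrays the order of the members, as the epithelial mean did. That order was thus not particular to the epithelial list. The monocyte mean was 7.81 in CX3CR1hi WT and 7.68 in Il10_KO. The part of these cells in the member differences was not tested.

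**Figure D4:**
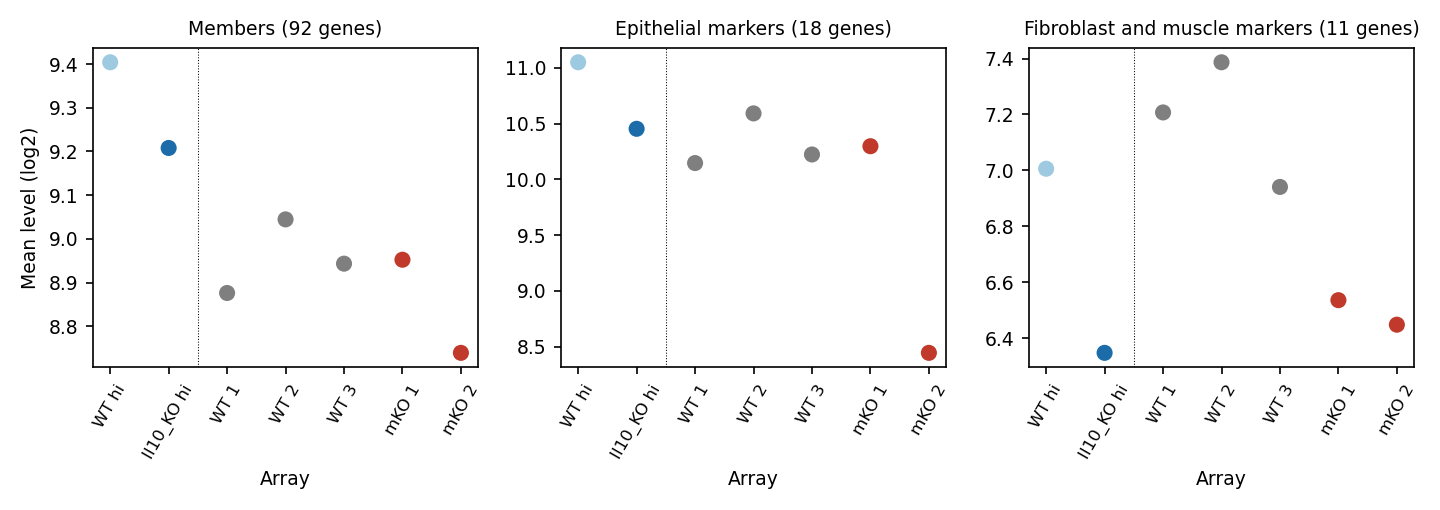
Mean log2 level (vertical axes, each panel with its own range) of the 92 members, the 18 epithelial markers and the 11 fibroblast and muscle markers in each array (hi, CX3CR1hi label; mKO, Il10ra_mKO; the dotted line parts the sort labels). The members and the epithelial markers give the 5 resident arrays the same order, with Il10ra_mKO array 2 lowest, and both Il10ra_mKO arrays are lowest in the fibroblast and muscle panel.

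The genes outside the lists whose values most resembled the mean of the members were sought over the 7 arrays, each centred on the mean of its sort label. The 5 most alike by Pearson r were Cdk1 (0.999), Clrn3 (0.996), Arl2bp (0.996), Spag5 (0.993) and Chchd10 (0.992). Cdk1 drives entry into mitosis, and Chchd10 is a protein of the mitochondrial intermembrane space. Cdk1 was at 7.38, 7.69 and 7.49 in resident WT and 7.54 and 7.10 in Il10ra_mKO, and at 8.52 and 8.13 in CX3CR1hi WT and Il10_KO. With 7 arrays and 19938 genes these values describe likeness of pattern only.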

How the data were processed

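Total RNA was labelled with biotin and hybridised to 7 arrays. The authors deposited log2 values (3.55 to 14.8, 0 missing), made with RMA and Partek, per the submitters' processing notes. Versions, the build and joint or separate summarisation of the arrays are not given in these sources. RMA's median polish can return the same value for several arrays, and it compresses differences of dim genes.

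Of 35399 rows, 21789 had 1 gene symbol, 1621 several and 11989 none. RefSeq (GRCm38.p6) matched 21698 by gene ID and changed 0 symbols. For the 999 genes with several rows, the brightest was kept. Among the 18 members with several rows, the rows differed in sign in 2 for Il10ra_mKO (Cox7a2l and Ndufc1) and in 1 for Il10_KO (Uqcc2). The test was limma 3.58.1 (R 4.3.3; lmFit, eBayes with trend) fitted over 4 groups and 7 arrays, with 3 residual and 0.831 prior degrees of freedom and two-sided p-values adjusted by Benjamini-Hochberg over 19938 genes. The steps were tested on simulated data. The number of arrays limits the precision.

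Members, lists and tests were chosen with earlier results of these data known. Named members were the 2 largest differences in each direction per complex (1 for complex II), the 4 largest in each direction for Il10_KO, those past an unadjusted p, the brightest of each complex, the isoform pairs and the Atp5g genes. Others named, such as members with groups apart, were chosen after their values were seen. Alternatives were quantile normalization, median centring, a brightness filter, the mean of rows, no trend, resident arrays only, runs as a block, fewer members and leaving out each array.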

Additional observations from a re-analysis of the deposited data

Results flagged for a closer look

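In Ndufaf6, a complex I assembly factor, the differences had opposite signs, but opposite effects are not shown. Both Il10ra_mKO arrays lay above every resident WT array (difference 0.08 ± 0.05, SE), and the Il10_KO array lay below its WT partner (−0.29). The difference between the effects was 0.37 on the log2 scale (limma, unadjusted p = 0.0143, adjusted p = 0.152). The gene is under the brightness cut, at 5.39, 5.39 and 5.34 in resident WT and 5.39 and 5.52 in Il10ra_mKO, where array 1 tops WT by less than these digits show. The Il10_KO side rests on 1 array against 1, and the spread on resident arrays with tied values.

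Cox8b, a complex IV form known from muscle and brown fat, was called in the difference between the effects (0.19, limma adjusted p = 0.012), a call that rests on tied values. It was at 4.57 in CX3CR1hi WT and 4.39 in Il10_KO, and at 4.70 or 4.71 in all 5 resident arrays, where it took 2 distinct values and 4 arrays were equal. It is under the brightness cut in all arrays, so the brightness filter leaves it out of the test.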

How the results depend on the processing

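The median of all members stayed below 0 in Il10ra_mKO under all alternatives run (−0.20 to −0.0094, nearest 0 without array 2). In Il10_KO it stayed below 0 under those of normalization, filter, rows, trend and members. Leaving out 1 array at a time, the median of complex IV ran from −0.20 to −0.00071 and that of complex V from −0.24 to 0.0054, in both cases nearest or past 0 without Il10ra_mKO array 2. Members lower at an unadjusted p numbered 3 with quantile normalization, 2 with median centring, 0 without Cox7a1 and 0 to 19 leaving out arrays. Higher ones numbered 0 to 5, and members with the mutant arrays below WT 10 to 57. Members past an adjusted p of 0.05 numbered 1 with median centring (Cox7a1) and 0 leaving out a WT array. The share of all genes past it with median centring is not given here. For Il10_KO, where limma assumes that 2 lone arrays vary as the others, 1 member passed (Cox8b), where 7.9% of all genes did, 0 with quantile normalization, median centring, the brightness filter (2 genes in all) or only members with 5 distinct resident values, and 1 to 4 leaving out arrays. With only those members the complex I median in Il10_KO was −0.25. Differences of named members that turned sign leaving out an array ran from −0.0179 to 0.167 in Cox7a2l, −0.43 to 0.0054 in Atp5d, −0.62 to 0.0205 in Atp5g1, −0.52 to 0.0584 in Atp5g3, −0.22 to 0.0033 in Cox8a, −0.20 to 0.0369 in Cox8c, −0.0793 to 0.367 in Ndufc1, −0.0053 to 0.039 in Ndufc2, −0.0632 to 0.234 in Uqcc2, −0.114 to 0.072 in Cox6b1 and −0.103 to 0.128 in Cox7b2. Ndufaf2 turned to 0.0017 with quantile normalization and Cox8b to 0.00375 with median centring. The cause was not tested. The last 2 alternatives of fewer members, without Cox7a1 and with distinct values only, were chosen after seeing the data. The labels give no replicate numbers that pair the groups, and only the runs of sample numbers could serve as a block. Signal over background limits the 7 members under the brightness cut.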
